A study of Danio rerio with 12 samples.

Results

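Hairy-related genes encode basic helix-loop-helix repressors of transcription and are among the best known direct targets of Notch signalling. In that pathway a Delta or Jagged ligand on a cell binds a Notch receptor on its neighbour, the receptor is cut by ADAM proteases and gamma-secretase, and its inner part joins the DNA-binding protein RBPJ in the nucleus to switch on such targets. In vertebrate embryos Notch is known for keeping neural progenitors undifferentiated and, through Dll4, for restraining tip cell behaviour in sprouting vessels. The 3 genes described here were HES1 (ENSDARG00000006514), her4.1 (ENSDARG00000056732) and her2 (ENSDARG00000038205), 3 of 33737 gene IDs measured. HES1 is the symbol that the name table gives to this zebrafish gene; in mammals HES1 is a repressor with a pulsing expression driven by its own feedback. In zebrafish her4 genes are Notch targets of the nervous system, and her2 belongs to the same family of hairy and enhancer of split genes. They were chosen by gene ID, with their levels in all 12 libraries already known, so their own levels are given as a description and without a test.

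The libraries came from the brains of zebrafish larvae of strain ABGO, in a study of how macrophages mend broken vessels of the brain, as its title has it. Macrophages were taken from Tg(coro1a:Kaeda; flk1:eGFP) larvae and endothelial cells from Tg(flk1:DenNTR; coro1a:eGFP) larvae, so each cell type came from a line of its own and the line cannot be told apart from the cell type. The flk1 promoter drives expression in endothelium, and coro1a is active in leukocytes in general, not in macrophages alone. Each cell type was sampled as an uninjured control, at macrophage arrival and at macrophage traction, with 2 libraries in each of the 6 groups. Cells were marked by switching their fluorescent protein to red with a laser, about 80 cells from 20 pooled animals, and were then collected by flow sorting from dissociated heads. Controls went through the same marking and sorting. Whether the 2 replicates of a group came from different animals is not in the labels, and p-values then measure only the spread between these samples, which may be technical.

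The libraries held from 12283046 to 39447004 reads in genes. The labelled cell types were visible in their markers. kdrl, a receptor of endothelial cells, measured from 11.4 to 97.3 RPKM (reads per gene, corrected for gene length and for sequencing depth) in the 6 endothelial libraries and at most 0.0755 RPKM in macrophages. The main gene named MPEG1, a macrophage gene, measured from 209 to 1018 RPKM in macrophages and at most 22.8 RPKM in endothelial libraries. cdh5, which encodes an adhesion protein of endothelium, measured from 18.0 to 190 RPKM in 5 endothelial libraries but 0.555 RPKM in endothelial traction replicate 1. CORO1A reached 704 RPKM in endothelial control replicate 2, where the macrophage list summed to 3646 RPKM, against at most 104 RPKM in the other endothelial libraries. Photoreceptor and lens markers summed to 9934 RPKM in endothelial arrival replicate 2, 21589 RPKM in endothelial traction replicate 1 and 1120 RPKM in macrophage traction replicate 1, and to at most 185 RPKM elsewhere. These libraries stood apart from their labels, so the values that rest on them are also given without them.

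HES1 was high at both injury stages in macrophages and at arrival in endothelial cells. In macrophage control it was listed at 0 in both libraries. In macrophage arrival it measured 196 and 11.8 RPKM, from 5913 and 678 reads. In macrophage traction it measured 67.4 and 79.8 RPKM, from 2208 and 4349 reads. All 4 libraries of injured macrophages were thus above both controls, and the replicates were close at traction and far apart at arrival. The endothelial control libraries measured 0.0341 and 0.521 RPKM, from 1 and 25 reads. The endothelial arrival libraries measured 386 and 66.0 RPKM, from 15449 and 4007 reads. Endothelial traction was at 0 and 0.0230 RPKM, from 0 and 1 read. Both endothelial arrival libraries were above all 4 other endothelial libraries. Markers of red blood cells also differed between these libraries: 14 erythroid genes summed to 66147.5 and 28811 RPKM in endothelial control, 78.1 and 18645 RPKM at arrival, and 24137 and 61089 RPKM at traction. The library with the most HES1, arrival replicate 1, had the lowest erythroid sum of the endothelial libraries, with 2 of the 14 genes at 1 RPKM or more against 7 to 12 in the other 5. Macrophage sums ran from 5.79 to 140 RPKM, and the part of erythroid RNA in the level of HES1 was not tested.

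her4.1 was high in macrophage traction and in 1 endothelial library. Macrophage control was listed at 0 in both libraries, and macrophage arrival at 0.106 and 0 RPKM, the former from 2 reads. Macrophage traction measured 118 and 20.8 RPKM, from 2421 and 708 reads. The 2 macrophage traction libraries were above the 4 earlier macrophage libraries without overlap. Endothelial control was listed at 0 in both libraries. Endothelial arrival measured 0 in replicate 1 and 20.5 RPKM in replicate 2, from 780 reads. Endothelial traction measured 0.0874 and 0 RPKM, the former from 2 reads. Its presence in endothelial cells therefore rested on arrival replicate 2, a library with high photoreceptor and lens markers.

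her2 was found in endothelial arrival alone, with 22.9 RPKM from 461 reads in replicate 1 and 31.6 RPKM from 966 reads in replicate 2. It was listed at 0 in the other 10 libraries. In those libraries a count of 0 allows at most 0.316 RPKM, the worth of 3 reads in the shallowest of them. The replicates of endothelial arrival were closer for her2 than for HES1 and her4.1. All 3 genes passed the filter on low reads (a total of 15 or more reads, with 2 or more libraries reaching 10 reads once scaled to the median depth), her2 through endothelial arrival alone. Since reads carry no molecular identifiers, floors and intervals here cover counting error only, and with cells this few a lower level and fewer expressing cells cannot be told apart.

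**Figure D1:**
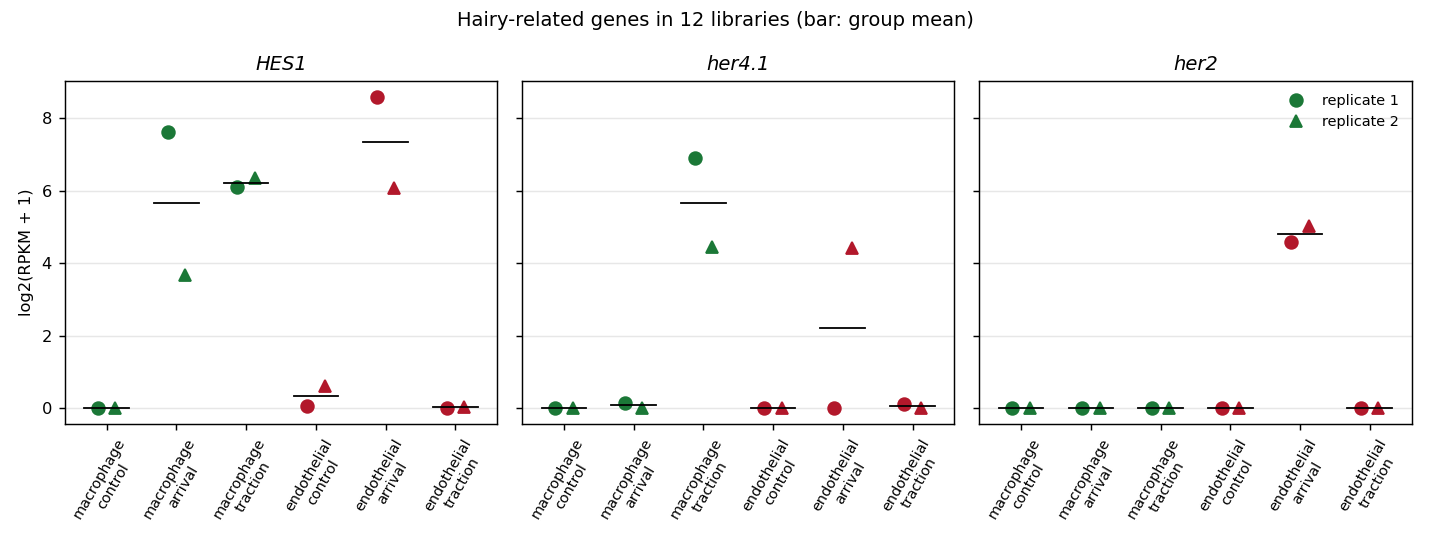
Level of each gene, as log2(RPKM + 1), in the 6 groups. Circles are replicate 1, triangles replicate 2, black bars group means, green macrophages and red endothelial cells. HES1 is high in 6 libraries, her4.1 in 3 and her2 in 2.

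Ordered by mean RPKM, HES1 was highest in endothelial arrival (226 ± 226 RPKM, SD, n = 2), followed by macrophage arrival (104 ± 130, SD, n = 2) and macrophage traction (73.6 ± 8.76, SD, n = 2). The libraries of these 3 groups overlapped. They stood apart from endothelial control (0.278 ± 0.345, SD, n = 2), endothelial traction (0.0115 ± 0.0162, SD, n = 2) and macrophage control. For her4.1 the order began with macrophage traction (69.4 ± 68.8 RPKM, SD, n = 2), which stood apart from endothelial arrival (10.3 ± 14.5, SD, n = 2), and the other 4 groups were at 0.0530 RPKM or below on average. For her2 endothelial arrival (27.3 ± 6.20 RPKM, SD, n = 2) stood apart from the rest, all at 0.

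Differences between stages were large on the fold scale, because the lower group was at or near 0. Against a floor of 3 reads per library, HES1 was at least 655-fold higher in macrophage arrival than in macrophage control and at least 464-fold higher in macrophage traction. In endothelial cells the mean RPKM of arrival was 814 times that of control. Pooled over replicates and scaled to the reads in genes, HES1 was 15476 times more abundant in endothelial arrival than in endothelial traction, where it had 1 read (exact 95% interval 2777 to 611289). her4.1 was at least 274-fold higher in macrophage traction than in macrophage control, and 1570 times more abundant than in macrophage arrival, where it had 2 reads (exact 95% interval 434 to 12967). her2 was at least 134-fold higher in endothelial arrival than in control and at least 167-fold higher than in traction.

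Single libraries set several of these sizes. Without macrophage arrival replicate 1 the bound for HES1 in macrophage arrival over control was 74.4-fold, and without replicate 2 it was 1235-fold. Without macrophage control replicate 2, the shallower control, it was 1508-fold at arrival and 1068-fold at traction. The ratio of mean RPKM of HES1 in endothelial arrival to control was 238 without arrival replicate 1, 1389 without arrival replicate 2 and 433 without control replicate 1. Leaving out control replicate 2 left 1 control read. There the ratio of pooled reads, scaled to the reads in genes, was 5665 (exact 95% interval 1017 to 223775). The ratio of HES1 in endothelial arrival to traction was 5291 without arrival replicate 1, 30908 without arrival replicate 2, 8413 without traction replicate 1, and at least 2753 without traction replicate 2, which held the 1 read. For her4.1 the bound in macrophage traction over control was 81.8-fold without traction replicate 1, 466-fold without traction replicate 2 and 630-fold without control replicate 2. Its ratio of macrophage traction to arrival was 569 without traction replicate 1 and 3235 without traction replicate 2, 541 without arrival replicate 2, and at least 831 without arrival replicate 1. The her2 bound over endothelial control ran from 113-fold without arrival replicate 2 to 219-fold without control replicate 1, and that over traction from 140-fold to 199-fold as each library was left out.

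On the log2(RPKM + 1) scale the differences were smaller and carried wide errors. Each SE is that of the limma fit, which pools the spread over all 12 libraries and draws on other genes. It is not the spread of the libraries compared alone. For HES1 macrophage arrival minus control was 5.65 ± 1.81 (SE, n = 2 per side) and macrophage traction minus control was 6.22 ± 1.81. Its endothelial difference was 7.00 ± 1.81 for arrival minus control and -7.31 ± 1.81 for traction minus arrival. The latter was the most negative of the 17613 genes in that comparison. The rank is read no further, since the gene was chosen with these values known. That difference ran from -8.58 to -6.05 with a library left out. Without macrophage arrival replicate 1, HES1 in arrival minus control was 3.68. HES1 in macrophage traction minus arrival was 0.57 ± 1.81, less than its error. For her4.1 macrophage traction minus control was 5.67 ± 1.65 and traction minus arrival 5.60 ± 1.65. Endothelial arrival minus control was 2.21 ± 1.65 for her4.1, and 0 without arrival replicate 2. For her2 endothelial arrival minus control was 4.80 ± 1.2, and traction minus arrival was the same size below 0. Without the 3 libraries with high photoreceptor markers, HES1 in endothelial arrival minus control was 8.27 and her2 was 4.58. Without them her4.1 in macrophage traction minus control was 4.44 and HES1 was 6.34. Without endothelial control replicate 2, the library with high CORO1A, HES1 in endothelial arrival minus control was 7.28.

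**Figure D2:**
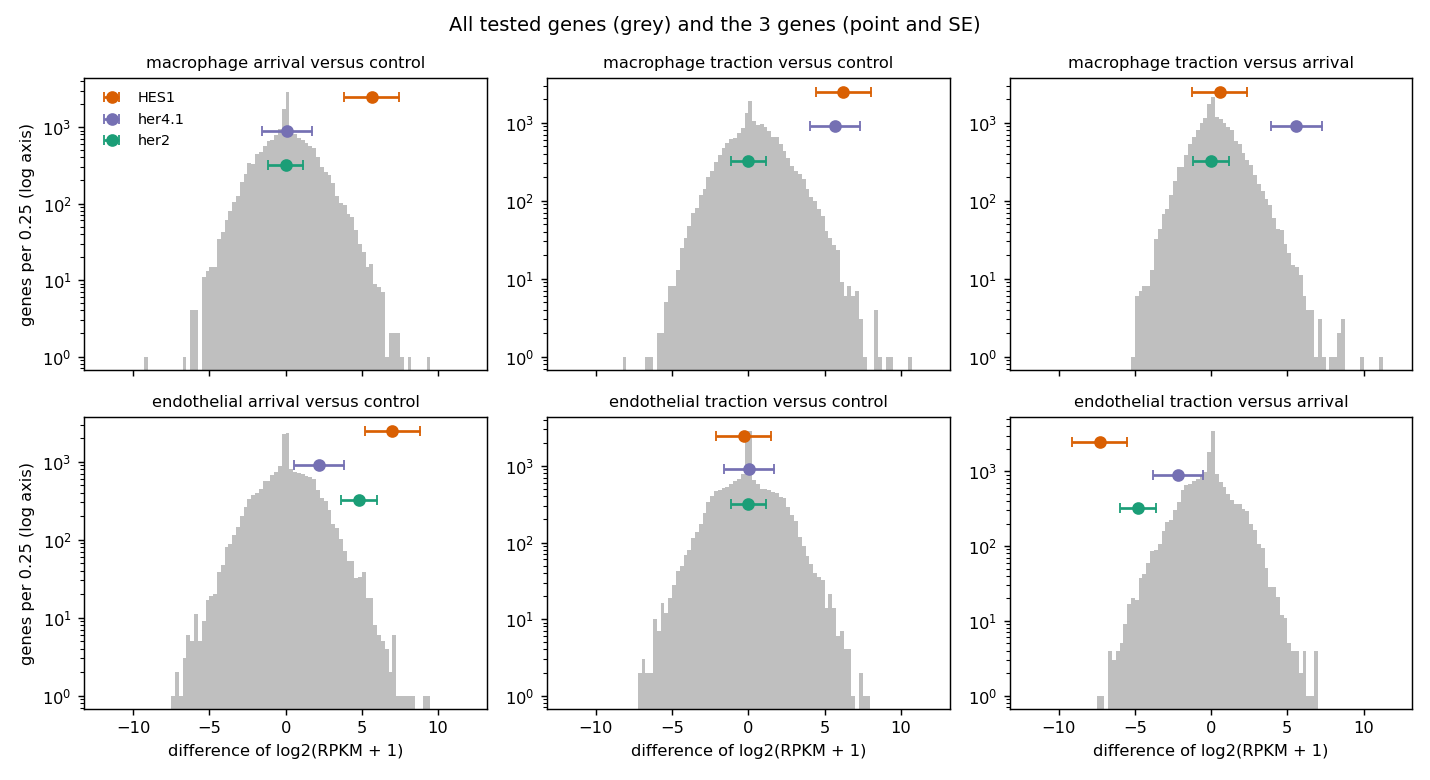
Differences in log2(RPKM + 1) of all 17613 genes as grey histograms (count on a log axis) for the 6 comparisons of stages, with the 3 genes as points with standard errors at arbitrary heights. HES1 lies at the lower end in endothelial traction versus arrival and near 0 in endothelial traction versus control.

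The values that chose the genes lie in the same comparisons, so counts of libraries without overlap are printed with their background and read no further. In macrophage traction versus control, 2 of the 3 genes (HES1 and her4.1) had both traction libraries above both controls, as did 19.1% of all genes tested. In macrophage arrival versus control it was 1 of 3 (HES1) and 12.5% of genes. In macrophage traction versus arrival it was her4.1 and 14.9%. In endothelial arrival versus control it was HES1 and her2, against 10.4% of genes, and in endothelial traction versus arrival both had the lower levels without overlap, against 11.5%. In endothelial traction versus control HES1 was lower without overlap, against 14.5%. That gap rests on 1 read in control replicate 1 and 1 read in traction replicate 2, each under the floor of 3 reads. Macrophage and endothelial libraries overlapped for all 3 genes, where 1.94% of genes were higher and 0.613% lower in every macrophage library.

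The 3 genes did not share a profile. Across the 12 libraries Pearson's r of log2(RPKM + 1) was 0.49 between HES1 and her4.1, 0.54 between HES1 and her2, and 0.19 between her4.1 and her2. The libraries in which all 3 were above 10 RPKM were reduced to endothelial arrival replicate 2. HES1 and her4.1 were also both high in macrophage traction, and HES1 and her2 in endothelial arrival replicate 1. These correlations are descriptions over 12 libraries that include many zeros.

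The near copies of her4.1 were also measured. In the RefSeq annotation of assembly GRCz12tu, which is not the build of the files and serves here for names only, her4.1 has her12 and her4.2 on its one side and her4.3, her4.4 and her4.5 on the other. Since these copies are near identical, reads may have been split among them, and the sum is more certain than the split. her4.1 to her4.5, her4.1 included, summed to 146 and 83.6 RPKM in macrophage traction, from 3434 and 4502 reads. The sums were 0 and 1.78 RPKM in macrophage control and 9.19 and 0 RPKM in macrophage arrival. In endothelial arrival the sum was 0.0452 RPKM in replicate 1 and 140 RPKM in replicate 2, and in the other endothelial libraries it was at most 0.151 RPKM. Without her4.1, her4.2 to her4.5 summed to 28.1 and 62.8 RPKM in macrophage traction, 9.08 and 0 RPKM in macrophage arrival, and 0.0452 and 120 RPKM in endothelial arrival. The sum of the 4 other copies was thus higher in macrophage traction replicate 2 than in replicate 1, the reverse of her4.1, and it had the same gap between the endothelial arrival replicates. her4.3 differed from the rest in macrophage traction, at 0 and 3.44 RPKM, beside 3.61 RPKM in macrophage arrival replicate 1 and 12.7 RPKM in endothelial arrival replicate 2. her12, the neighbour outside the her4 names, measured 9.09 RPKM in macrophage arrival replicate 1 and 9.58 RPKM in endothelial arrival replicate 2, and at most 0.0447 RPKM in macrophage traction.

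The neighbours of her2 were high at the same stage. In the same RefSeq annotation her2 lies next to her15.1 and her15.2, zebrafish hairy-related genes of the nervous system that are themselves near copies. her15.1 measured 93.8 and 95.3 RPKM in endothelial arrival, 0.0471 and 0.0288 RPKM in endothelial control, and 19.5 and 0 RPKM in endothelial traction. her15.2 measured 66.6 and 111 RPKM in endothelial arrival, 0 in both endothelial controls, and 30.8 and 0.0316 RPKM in endothelial traction. Both genes differed from her2 in macrophage traction, where her15.1 measured 6.84 and 15.8 RPKM and her15.2 measured 10.0 and 31.4 RPKM while her2 was at 0. Endothelial arrival minus control was 6.52 ± 1.72 for her15.1 and 6.44 ± 1.79 for her15.2 (SE, n = 2 per side). Neither passed the adjustment over all genes by limma (adjusted p = 0.824 for both). With voom on the recovered reads both passed (adjusted p = 0.00302 for her15.1 and 6.82e-05 for her15.2), as did 1.88% of all genes tested. her15.2 and the her4 copies other than her4.1 were singled out after their values were seen.

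The family as a whole was counted over 28 hairy-related genes, the 3 described here and 25 others of a list that also held BHLHE40 and BHLHE41, related repressors. In macrophages the number with at least 1 RPKM was 3 and 4 in control, 6 and 3 at arrival, and 13 and 15 at traction. In endothelial cells it was 6 and 2 in control, 5 and 19 at arrival, and 6 and 3 at traction. The counts were highest in endothelial arrival replicate 2 and in the 2 macrophage traction libraries. Over all 17613 genes tested, the share with at least 1 RPKM was also highest in macrophage traction replicate 2 (68.4%) and endothelial arrival replicate 2 (59.1%), and it was 43.1% in macrophage traction replicate 1 and 28.2% to 48.7% in the other 9 libraries.

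**Figure D3:**
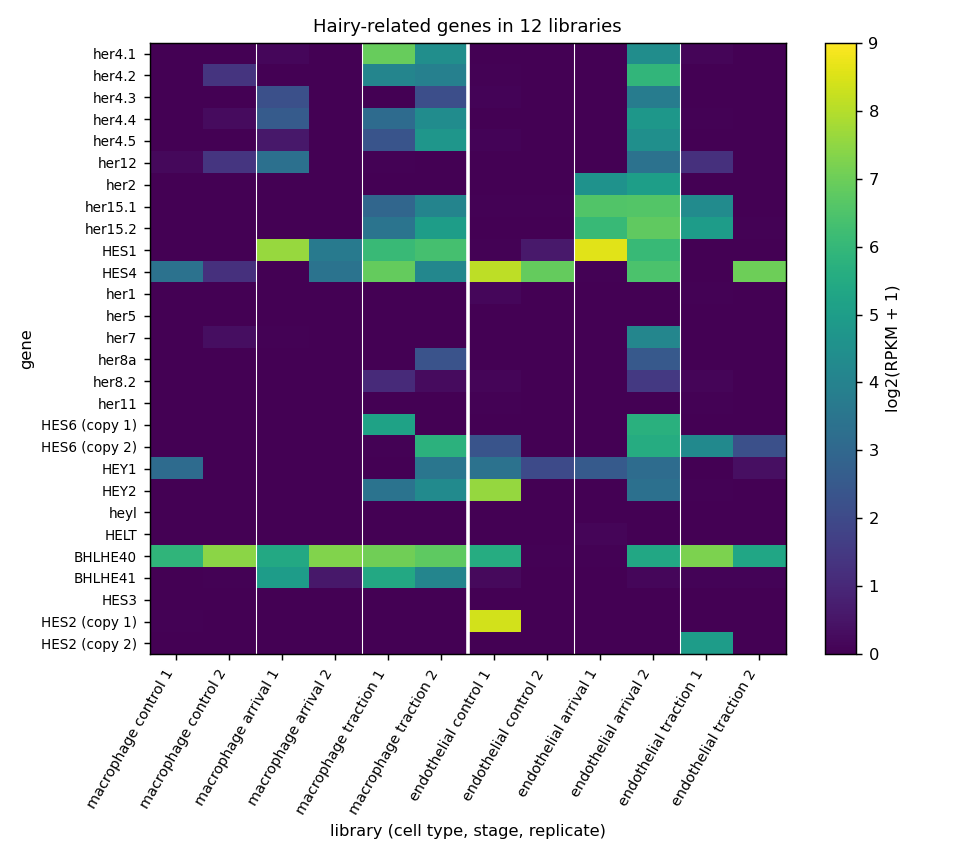
Level, as log2(RPKM + 1), of 28 hairy-related genes (rows) in 12 libraries (columns; thick line between cell types). Genes that share a name are numbered as copies. her4.1, her4.2, her4.4 and her4.5 are bright in macrophage traction and endothelial arrival replicate 2, and her2, her15.1 and her15.2 in both endothelial arrival libraries.

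Of the 25 others, 16 passed the filter and 9 did not, among them heyl, which was listed at 0 in all 12 libraries. The 16 include near copies of her4 and of her15, among which reads may have been split, so they are not all separate observations. In macrophage traction versus control 15 of the 16 had a difference above 0, with a median of 3.06, beside a median of 0.26 over all genes tested. None was called by limma, 4 had an unadjusted p under 0.05, and voom called 4 (her15.2, her4.5, HEY2 and BHLHE41), beside 1049 of all 17613 genes at that unadjusted p and 467 called by voom (2.65%). Without the 3 libraries with high photoreceptor markers, a fit with 1 macrophage traction library, limma called 4 of the 16, all higher, and 1021 of all genes. Without macrophage traction replicate 2 the median was 2.65, and without replicate 1 it was 2.77. In endothelial arrival versus control 12 of the 16 were above 0, with a median of 1.66 beside 0 over all genes. None was called by limma, 2 had an unadjusted p under 0.05, and voom called 2 (her15.1 and her15.2), beside 719 of all genes at that unadjusted p and 331 called by voom (1.88%). Without the photoreceptor libraries limma called 0 of the 16 there and 107 of all genes. Without endothelial arrival replicate 2 that median was -0.03, with 3 of 16 above 0. Genes that passed the filter through the group in which they were high had to differ, so these counts are descriptions of the libraries.

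Some relatives had the reverse pattern or none in endothelial cells. HES4 measured 271 and 115 RPKM in endothelial control, 0.0248 and 87.2 RPKM at endothelial arrival, and 0 and 127 RPKM at endothelial traction, a pattern unlike that of HES1. In macrophages HES4 measured 9.44 and 1.36 RPKM in control, 0 and 9.82 RPKM at arrival, and 117 and 17.2 RPKM at traction. HEY1, an effector of Notch in vessels, measured 9.57 and 3.09 RPKM in endothelial control, 4.83 and 8.07 RPKM at arrival, and 0.0127 and 0.276 RPKM at traction. HEY2, its close relative, measured 190 RPKM in endothelial control replicate 1 and 0 in replicate 2. In macrophages HEY2 was higher in both traction libraries than in both controls, as were her4.1 and 19.1% of all genes tested. Of the 2 genes named HES6, an inhibitor of HES1 in mammals, 1 measured 35.1 and 0 RPKM and the other 0.0314 and 53.6 RPKM in macrophage traction. A gene named HES2 reached 334 RPKM in endothelial control replicate 1 and at most 0.0410 RPKM in the other 11 libraries. Single libraries thus decided the level of several relatives.

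The receptors were present at modest levels. notch2 was found in all 6 macrophage libraries, from 3.11 to 15.8 RPKM, and at 0.00380 to 4.80 RPKM in endothelial cells. Macrophages minus endothelial cells was 2.41 ± 1.00 (SE, n = 6 per side), which did not pass the adjustment by limma (adjusted p = 0.307). NOTCH1 measured 44.7 and 6.88 RPKM in endothelial control, 0.0631 and 1.83 RPKM at endothelial arrival, and 0.00532 and 4.52 RPKM at endothelial traction. In endothelial arrival replicate 1, where HES1 was at its highest, NOTCH1, notch2 and NOTCH3 were each below 0.1 RPKM. That library also had the lowest share of all genes tested at 1 RPKM or more, 28.2%. The copies notch1a and notch1b were both sought as NOTCH1, which matched a single ID, so a further receptor may be missing here. The part of the receptors in the level of HES1 was not tested. NOTCH3 exceeded 1 RPKM in macrophage control replicate 1, macrophage traction replicate 2 and endothelial arrival replicate 2.

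dll4, a Delta ligand of endothelium, was present in all 6 endothelial libraries. It measured 82.4 and 133 RPKM in endothelial control, 99.98 and 21.3 RPKM at arrival, and 5.52 and 89.2 RPKM at traction. In macrophages it was at most 4.02 RPKM in 5 libraries and 34.6 RPKM in traction replicate 2. Macrophages minus endothelial cells was -4.12 ± 1.18, just outside the threshold by limma (adjusted p = 0.0570) and called by voom (adjusted p = 0.00654). Over the 18 alternatives the adjusted p ran from 0.00654 to 0.185, and 4 of them called it. dll4 was high in endothelial control, where HES1, her4.1 and her2 were at or near 0, and its part in their levels was not tested. jag2b, a Jagged ligand, measured 17.0 and 8.83 RPKM at endothelial arrival, 4.35 and 2.92 RPKM in endothelial control, and 8.11 and 36.3 RPKM at endothelial traction. In macrophages it was at most 7.85 RPKM, and macrophages minus endothelial cells was -2.85 ± 0.99, not called by limma (adjusted p = 0.162) and called by voom (adjusted p = 0.000442). jag1a, jag1b and jag2a exceeded 10 RPKM in no library. dlb, a Delta ligand of zebrafish neurons, measured 63.0 RPKM in macrophage traction replicate 2, 34.9 RPKM in endothelial arrival replicate 2 and 69.3 RPKM in endothelial control replicate 1, and at most 0.105 RPKM in the other 9 libraries. The first 2 of these libraries held her4.1 and the third did not, and dlb is named here after its values were seen.

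Of 20 tested genes whose proteins act on receptors or ligands, LFNG and mfng are named here after their values were seen. LFNG stood near her4.1 in macrophages. LFNG is a glycosyltransferase that sets which ligands a Notch receptor answers to, and a known target of the pathway. It measured 0 and 0.0788 RPKM in macrophage control, 0.148 and 0 RPKM at arrival, and 14.7 and 113 RPKM at traction. Macrophage traction minus control was 5.35 ± 1.73 (SE, n = 2 per side), which limma did not call (adjusted p = 0.541). Voom called it (adjusted p = 0.00265), as it did 2.65% of all genes tested. In endothelial cells LFNG was present in every library, from 4.34 to 61.4 RPKM. Its homolog mfng was present in all 6 macrophage libraries, from 27.98 to 162 RPKM.

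In the nucleus, 1 of 2 genes named RBPJ measured from 16.8 to 154 RPKM in macrophages at every stage, and from 0.0111 to 21.4 RPKM in endothelial cells. Macrophages minus endothelial cells was 3.28 ± 1.1 for that gene, not called by limma (adjusted p = 0.138). The other RBPJ exceeded 1 RPKM in 4 libraries, both of macrophage traction, endothelial arrival replicate 2 and endothelial traction replicate 1. RNA of RBPJ, the DNA-binding partner of the receptor, was present in macrophage control, where HES1 was at 0. The part of RBPJ in the level of HES1 was not tested.

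Of 16 targets outside the family, 15 passed the filter and limma called none in any comparison. Voom called 1 in macrophage arrival versus control (beside 1.2% of all genes), 2 in macrophage traction versus control (2.65%) and 2 in endothelial arrival versus control (1.88%), all higher at the injury stage. These were 2 genes named MYC, a growth regulator, and SOX9, a transcription factor, named here after their values were seen. The MYC gene ENSDARG00000045695 measured 0 and 0.0437 RPKM in macrophage control, 228 and 5.24 RPKM at arrival, and 38.7 and 20.8 RPKM at traction. Like HES1 it was above both controls in all 4 libraries of injured macrophages, with arrival minus control at 5.21 ± 2.15 (adjusted p = 1 by limma, 0.0148 by voom) and traction minus control at 4.85 ± 2.15 (0.828 and 0.00972; SE, n = 2 per side). Both libraries of a stage were above both macrophage controls in 12.5% of all genes tested at arrival and 19.1% at traction. In endothelial cells this MYC gene measured 0.0281 and 88.6 RPKM in control and 1.26 and 5.93 RPKM at arrival, unlike HES1. The other MYC gene, ENSDARG00000007241, measured 0.0288 and 0 RPKM in endothelial control, 17.7 and 98.6 RPKM at arrival, and 82.2 and 0 RPKM at traction. Endothelial arrival minus control was 5.41 ± 2.11 (adjusted p = 0.978 by limma, 0.000874 by voom), and macrophage traction minus control was 5.23 ± 2.11 (0.758 and 0.0491). SOX9 was at 0 in both endothelial controls, at 8.76 and 19.2 RPKM at arrival and at 12.2 and 0 RPKM at traction, with arrival minus control at 3.81 ± 1.43 (adjusted p = 0.978 by limma, 0.00873 by voom). Both genes were thus above the endothelial controls in both arrival libraries, as were HES1 and 10.4% of all genes tested.

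NRARP and EFNB2 had other levels. NRARP encodes a feedback inhibitor of Notch, and 1 of 2 genes of that name measured 54.8 and 10.9 RPKM in endothelial control, 13.7 and 15.8 RPKM at arrival, and 6.90 and 23.7 RPKM at traction. In macrophages it was at most 11.7 RPKM, and macrophages minus endothelial cells was -3.10 ± 1.05, not called by limma (adjusted p = 0.148) and called by voom (adjusted p = 0.0205). The 3 genes named EFNB2, an arterial ephrin ligand, were each above 6 RPKM in both endothelial controls. In endothelial traction they were at 5.94 RPKM or below. Of all genes tested, 14.5% were lower in endothelial traction than in control without overlap. Traction replicate 1 was also the library with low cdh5 and high photoreceptor and lens markers. The lowest unadjusted p by limma among the 3 EFNB2 genes was 0.00403, for traction versus control, with an adjusted p of 0.979. For EFNB2 gene ENSDARG00000074050 macrophages minus endothelial cells was -2.68 ± 1.00, not called by limma (adjusted p = 0.213) and called by voom (adjusted p = 0.0387).

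**Figure D4:**
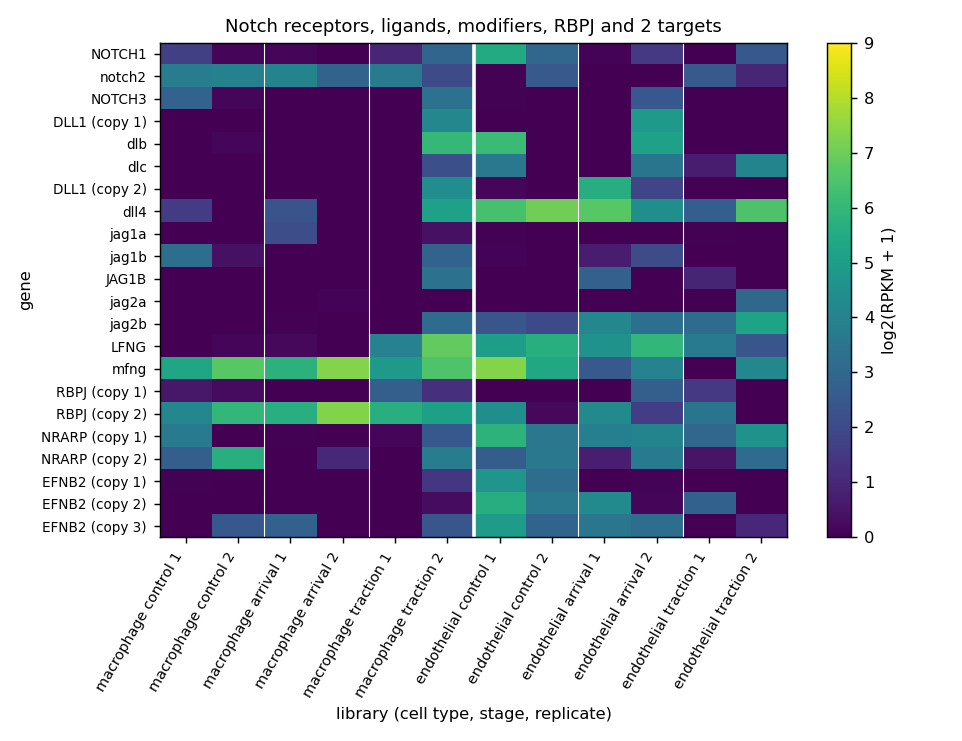
Level, as log2(RPKM + 1), of Notch receptors, ligands, glycosyltransferases (LFNG, mfng), RBPJ and the targets NRARP and EFNB2 in the 12 libraries; a thick line parts the cell types. dll4 is bright in endothelial cells, dimmest in traction replicate 1, and 1 RBPJ is bright in macrophages at all stages.

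Over the whole pathway, 95 gene IDs of a list of receptors, ligands, processing and nuclear factors and targets were matched besides the 3 genes, and 84 passed the filter. Limma called none of the 84 in any of the 7 comparisons when all 12 libraries were used. Without the 3 libraries with high photoreceptor markers it called 8 of the 84 in macrophage traction versus control (1021 of all genes) and 9 in macrophage traction versus arrival (1012 of all), each higher at traction. It then called 1 in endothelial arrival versus control (107 of all), 1 in endothelial traction versus arrival (191 of all) and 0 in the other 3 comparisons. That fit leaves 1 library in 3 groups, assumed to vary like the others. With all 12 libraries limma called 497 of 17613 genes (2.82%) between macrophages and endothelial cells. Among the stage comparisons the fit on all 12 libraries called 1 gene in all, in macrophage traction versus arrival (0.00568%). Of the 84, 15 had an unadjusted p under 0.05 between cell types (7 higher and 8 lower in macrophages), beside 1994 of all genes, and voom called 5 of the 84 and 1124 of all genes (6.38%). In macrophage traction versus control 7 of the 84 had an unadjusted p under 0.05, all higher, beside 1049 of all genes, and voom called 8 of the 84, all higher, and 467 of all genes (2.65%). The median difference of the 84 there was 0.91, beside 0.26 over all genes. In endothelial arrival versus control 7 were higher and 1 lower at an unadjusted p under 0.05, beside 719 of all genes, and voom called 5 of the 84, all higher, and 331 of all genes (1.88%). In macrophage arrival versus control the unadjusted count was 1 of 84 and 732 of all, and in macrophage traction versus arrival 3 of 84 and 591 of all, where voom called 1 and 4 of the 84 and 212 (1.2%) and 305 (1.73%) of all. In endothelial traction versus control and versus arrival it was 5 and 5 of 84, beside 669 and 595 of all, where voom called 0 and 1 of the 84 and 317 (1.8%) and 274 (1.56%) of all.

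Markers of neural cells varied between the libraries in which the 3 genes were high. Of 37 neural progenitor markers, 24 had at least 1 RPKM in endothelial arrival replicate 2, and 14 and 19 in macrophage traction, where her4.1 was high. In the other 9 libraries the number ran from 2 to 13, with 13 in endothelial traction replicate 1 and 12 in macrophage control replicate 1. These markers summed to 3651 RPKM in endothelial traction replicate 1, 1375 and 728 RPKM in macrophage traction and 4345 RPKM in endothelial arrival replicate 2. Over all genes tested, the share with at least 1 RPKM was 59.1% in endothelial arrival replicate 2 and 43.1% and 68.4% in macrophage traction. It was 28.2% to 48.7% in the other 9 libraries. SOX2, a defining factor of neural progenitors, measured 7.26 RPKM in endothelial arrival replicate 2, 3.22 and 41.6 RPKM in macrophage traction and 9.56 RPKM in macrophage control replicate 1, and at most 0.711 RPKM elsewhere. In these libraries, in the same order, SOX3 measured 30.8, 0.107, 43.4 and 20.8 RPKM, and GFAP 9.96, 0, 3.08 and 12.8 RPKM. Another progenitor marker, nes, measured 2.53, 0, 0.0412 and 0.0221 RPKM. In the last of them, macrophage control replicate 1, her4.1 was at 0. The part of these markers in the level of her4.1 was not tested. In endothelial arrival replicate 1, where HES1 and her2 were high, 5 of 37 had at least 1 RPKM, SOX2 and SOX3 were at 0, and a gene named FABP7, a fatty acid binding protein of radial glia, gave 1099 of the summed 1145 RPKM. That FABP7 gene was found in every library, from 6.95 to 3774 RPKM. The other gene named FABP7 measured 16.2 RPKM in macrophage control replicate 1, 20.3 and 3.57 RPKM in macrophage traction, and 0 elsewhere. Of all genes tested, 28.2% had at least 1 RPKM in endothelial arrival replicate 1, the lowest share of any library. In macrophage arrival replicate 2, with 11.8 RPKM of HES1, 2 of 37 had at least 1 RPKM and SOX2, SOX3 and GFAP were at 0. In macrophage arrival replicate 1, with 196 RPKM of HES1, 10 of 37 progenitor markers and 18 of 25 neuron markers had at least 1 RPKM. The neurogenic factors ascl1a and neurog1 measured 13.9 and 8.49 RPKM there, and NEUROD1, a factor of young neurons, 0.0211 RPKM. In endothelial arrival replicate 1, with 386 RPKM of HES1, 16 of 25 neuron markers had at least 1 RPKM. NEUROD1 measured 107 RPKM in that library, while ascl1a and neurog1 were at 0. HES1 was also high in macrophage arrival replicate 2, macrophage traction and endothelial arrival replicate 2, where 2, 9, 12 and 21 neuron markers reached 1 RPKM. In the same order NEUROD1 measured 0.0221, 160, 12.3 and 538 RPKM. There ascl1a measured 0, 20.5, 0 and 24.1 RPKM, and neurog1 0, 0, 0 and 22.0 RPKM. Where HES1 was at or near 0, 13 and 4 neuron markers reached 1 RPKM in macrophage control and 13 and 5 in endothelial control. In endothelial traction 10 and 16 did. NEUROD1 measured 0.569 and 72.7 RPKM in macrophage control, at most 0.0530 RPKM in endothelial control, and 716 and 0 RPKM in endothelial traction. In these groups ascl1a reached 31.0 RPKM in endothelial traction replicate 2 and at most 0.0358 RPKM otherwise, and neurog1 at most 0.0376 RPKM. The part of these markers in the level of HES1 was not tested. Summed neuron markers ran from 73.7 to 588 RPKM in macrophages and from 247 to 2775 RPKM in endothelial libraries, highest in arrival replicate 2.

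**Figure D5:**
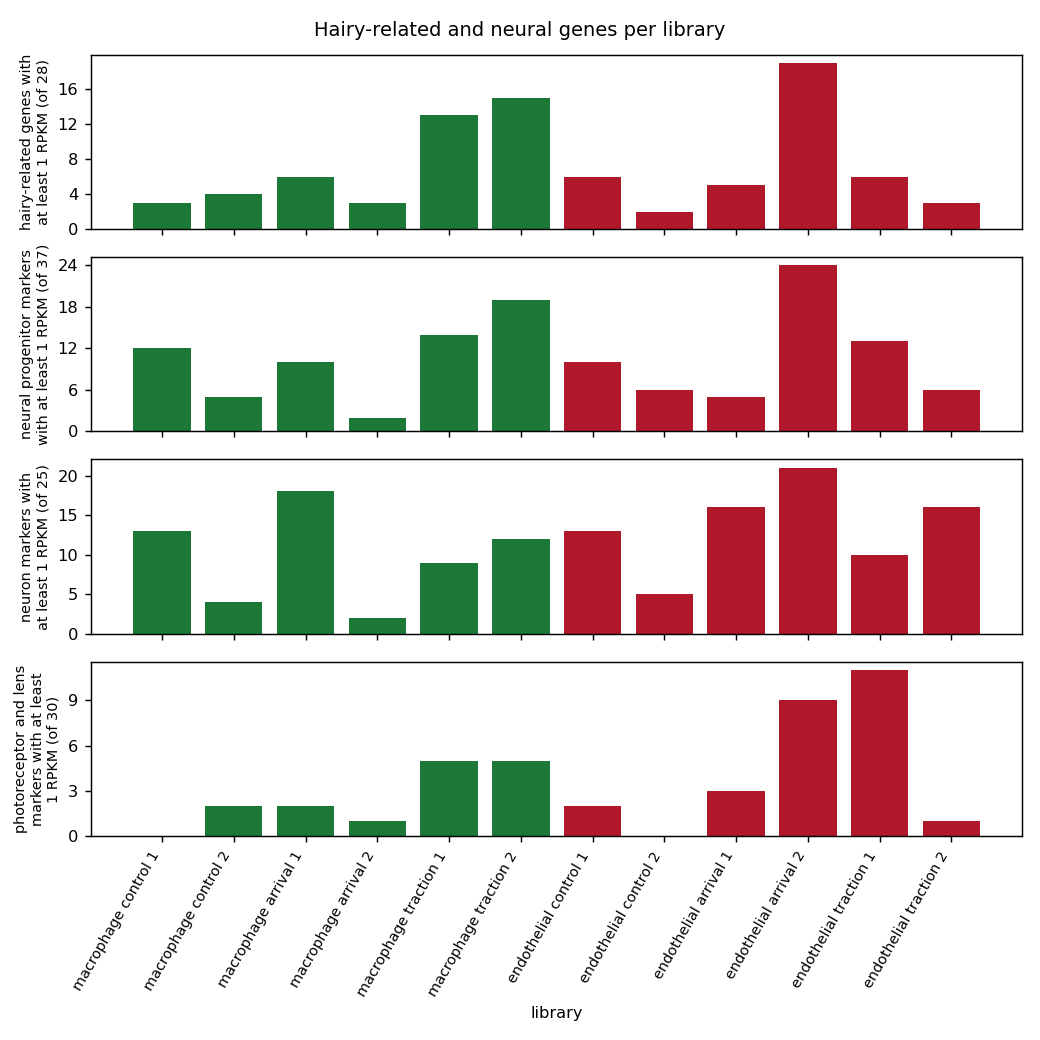
Number of genes with at least 1 RPKM in each library, for 28 hairy-related genes, 37 neural progenitor markers, 25 neuron markers and 30 photoreceptor and lens markers. Bars are single libraries, green for macrophages and red for endothelial cells. Endothelial arrival replicate 2 has the tallest bar in the first 3 panels and macrophage traction replicate 2 the next in the first 2.

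The genes most like each of the 3 were ranked by Pearson's r of log2(RPKM + 1) over the 12 libraries, among named genes that passed the filter. For HES1 they were RDH14 (r = 0.94), YTHDF3 (0.93), bada (0.93), SCLY (0.93) and NCK2 (0.89). For her4.1 they were zgc:112148, COBL, si:ch211-181p13.2, si:dkey-35m8.1 and si:ch211-207c15.7, each with r above 0.99. For her2 they included VAX1 (0.996), TFAP2B (0.993), zgc:162999 (0.993) and tmem59l (0.983). Over so many zeros a high r can come from a few shared high libraries alone. Ranked by Spearman's rho instead, 2 of the 5 stayed in the first 5 for HES1 and 0 for her4.1.

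A stricter view, chosen after the values were seen, asked which genes had at least 10 RPKM in each library where a gene was on and under 1 RPKM in each where it was off. For HES1, on in 6 libraries and off in 6, this pattern was met by 3 of 17613 genes: HES1 itself, bada and f3b. bada, a zebrafish relative of the cell death gene BAD, measured from 40.3 to 93.9 RPKM in the 6 libraries and at most 0.472 RPKM in the others. f3b, a zebrafish tissue factor gene of blood coagulation, measured 88.6 and 291 RPKM in macrophage arrival, 105 and 282 RPKM in macrophage traction, 47.2 and 14.8 RPKM in endothelial arrival, and at most 0.0602 RPKM in the others. For her4.1 the pattern, on in 3 libraries and off in 9, was met by 8 genes. They were her4.1, DUSP22, GADD45G, catip, dtx4b, si:dkey-222f2.1, zgc:112148 and an ID without a name. Of these dtx4b, a Deltex gene of the Notch pathway, measured 24.2 and 11.2 RPKM in macrophage traction and 11.0 RPKM in endothelial arrival replicate 2. Another gene named GADD45G did not meet the pattern, with 55.8 RPKM in macrophage control replicate 1 and 0.0231 RPKM in endothelial arrival replicate 2. For her2, on in 2 and off in 10, the pattern was met by 10 genes. They were her2, VAX1, TFAP2B, EN2, NPR3, QPCT, tmem59l and IDs without a name. Another gene named EN2 did not meet it and was at 0 in both endothelial arrival libraries. VAX1, TFAP2B and EN2 are transcription factors of the developing nervous system.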

How the data were processed

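RNA of 12 Smart-seq2 libraries was read as paired ends, per the labels' protocols. Per the submitters' processing notes the tools were TopHat2 2.0.12, Bowtie2 2.2.3, DESeq 1.16.0 and HTSeq 0.6.0; genome build and annotation release are not given in the sources used here. The authors deposited RPKM for 33737 gene IDs per library, per the file headers, and, in 6 further deposited tables, a normalized signal, the mean per group of reads scaled by size factors. The authors' p-values and fold changes were not used.

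Reads were recovered by joining RPKM and group means; 100% of values above 0 came out whole within 0.05 reads in each library. A count test had been planned for count tables only, so limma 3.58.1 in R 4.3.3 was fitted to log2(RPKM + 1) with robust variances and a trend, using the 12 libraries together and a mean per group. Cell types were compared with stage as a covariate. Differences on this scale understate the change of low genes. The 17613 genes tested had a total of 15 or more reads and reached 10 reads, scaled to the median depth, in 2 or more libraries. P-values were two-sided and adjusted by Benjamini-Hochberg over these genes with a threshold of 0.05. limma's voom on the recovered reads, other pseudocounts, filters and scalings, left out libraries and a replicate block were alternatives. The fit was tested on simulated data.

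The members and lists were chosen with earlier results of these data known. Named were the 3 genes, the 5 most like each (1 of those for her2 is not reported here), core Notch genes whatever their values, and label checks; genes outside this rule are said to be chosen after their values were seen, or stand as relatives, neighbours or markers. Names were found for 22566 of 33737 IDs, and 15 Notch list symbols were not matched, her6 and her9 among them. HES1 and HES4 may be her6 and her9 under upper-case symbols, which the sources used here do not say. An upper-case symbol does not say which zebrafish copy is meant. Reads of near-identical, overlapping or antisense genes may have been split. Sequences and promoters are not used here.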

Additional observations from a re-analysis of the deposited data

Results flagged for a closer look

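HES1 met the description of opposite directions in the 2 cell types for traction versus control. In macrophages both traction libraries (67.4 and 79.8 RPKM) were above both controls, each at 0, a difference of 6.22 on the log2(RPKM + 1) scale. In endothelial cells both traction libraries (0 and 0.0230 RPKM) were below both controls (0.0341 and 0.521 RPKM), a difference of -0.31. The difference between the cell types was not tested, since the gene was chosen with these values known. The endothelial side rests on 26 control reads and 1 traction read, and 25 of the control reads lie in endothelial control replicate 2, the library with 704 RPKM of CORO1A. Of the 84 Notch pathway genes tested for such a difference by limma, none passed, with a lowest adjusted p of 0.949 for arrival versus control and 0.953 for traction versus control.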

How the results depend on the processing

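Over 306 pairs of a difference of the 3 genes and an alternative, 297 kept their direction, 6 went to 0 and 3 turned. HES1 in macrophages minus endothelial cells was -0.66 with voom, HES1 in macrophage traction minus arrival was -1.41 without macrophage arrival replicate 2, and her4.1 in endothelial traction minus arrival was 0.06 without endothelial arrival replicate 2; the cause was not tested. A pseudocount of 0.1 gave larger sizes, such as 9.11 for HES1 in endothelial arrival minus control. The genes called between cell types numbered 307 without the filter, 1124 with voom, 176 without the 3 photoreceptor libraries, and 301 to 522 with a library left out. With voom the stage comparisons called 212 (macrophage arrival versus control), 467 (traction versus control), 305 (traction versus arrival), 331 (endothelial arrival versus control), 317 (traction versus control) and 274 (traction versus arrival) genes. Without the photoreceptor libraries they called 1021 in macrophage traction versus control, 1012 in macrophage traction versus arrival, 107 in endothelial arrival versus control and 191 in endothelial traction versus arrival; that fit leaves 1 library in 3 groups, assumed to vary like the others. The 1 gene called in macrophage traction versus arrival became 0 with a pseudocount of 0.1, without the filter and with quantile normalization. With a library left out, the calls ran from 0 to 79 in macrophage arrival versus control, 0 to 245 in traction versus control, 0 to 253 in traction versus arrival, and were 0 in the 3 endothelial comparisons. Notch pathway genes called between cell types numbered 1 with quantile normalization (dll4), 5 with voom, and 0 to 1 with a library left out. Quantile normalization moved the median of all genes between cell types from 0.19 to -0.06, and voom to 0.62. Same-numbered libraries deviated from their group means with correlations of -0.21 to 0.14 over 15 pairs of groups. These gave no sign that the numbers pair the samples, but a batch that does not follow the numbers would not show. With a replicate block the genes called were 508 between cell types and 1 in macrophage traction versus arrival. They were 0 in the other comparisons and the Notch list, and no difference of the 3 genes moved.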
